A study of Mus musculus with 12 samples.

Results

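Genes of the distal part of mouse chromosome 6 were followed in embryonic stem (ES) cells with and without Dicer1, the ribonuclease that cuts microRNAs and small interfering RNAs from their precursors. In Dicer-null clone 27G5 these genes lay above wild-type cells as a group, with a median log2 ratio of 0.231, whereas the rest of chromosome 6 lay at 0.008. In the other Dicer-null clone, 27H10, the same genes lay at 0.038. In the 2 lines of clone 27G5 labelled as overexpressing DNA methyltransferases, the 306 members from 115 Mb on lay above their Dicer-null parent at medians of 0.158 and 0.180, though not in every step of that stretch. In the 27H10 lines they lay at -0.004 and 0.023.

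A gene was a member if its array probe starts at 85 Mb or later on chromosome 6 (mouse build mm7, the coordinates in the array files) and was well above background in the same RNA on both arrays of a pair. The brightest such probe stood for each gene name, also where a brighter probe of the name starts before 85 Mb. Of 767 gene names with a probe there, 256 were not detected in this way, 511 were, and 4 of these had no value in at least 1 ratio because a spot was marked as an outlier. That left 507 members of 19405 genes tested on the whole array, against 479 genes of chromosome 6 that start before 85 Mb. Members were selected on position and on signal above background, and the stretch itself was proposed with earlier results of these data known, so the shifts of their medians are a description with no test. All channels detected 411 members. The other 96 were below background in some RNA, so a member seen only where it is high had to differ, and values over the 411 are given beside those over all members tested.

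The samples were 7 RNAs on 12 two-colour Agilent arrays, where each name in the labels was taken as 1 RNA. The labels do not say whether all arrays of a name held the same extract. One RNA came from wild-type ES cells, and each of the Dicer-null clones 27G5 and 27H10 gave 1 RNA of its own, 1 of the same clone labelled as overexpressing Dnmt1, and 1 of the clone labelled as overexpressing Dnmt3a and Dnmt3b. Dnmt1 copies methylation onto new DNA strands, and Dnmt3a and Dnmt3b place it on unmethylated DNA. All lines grew on gelatin with leukemia inhibitory factor, and the growth protocol names no feeder layer. The labels give neither the part of Dicer1 that was deleted, nor the promoter that drives the enzymes, nor the age of the cultures. Each array compared 2 RNAs, and each pair was hybridised on 2 arrays with the dyes exchanged, which gave 3 comparisons in each of 2 clones. The Dicer-null cells were set over wild type, and the cells labelled Dnmt1 or Dnmt3a,3b were each set over their Dicer-null parent. Ratios are log2 values, positive where the first-named cells are higher. Each clone is a single clone, wild type is a single RNA, and no separate cultures are named, so p-values from these ratios measure only the spread between these samples. The 8 overexpression arrays lay on 1 slide for clone 27G5 and on another for clone 27H10, and clone and slide cannot be told apart in those ratios. All 4 wild-type arrays shared 1 slide.

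The labels were checked first on the targeted genes. Dicer1 was lower in the Dicer-null cells, at a mean log2 ratio of -0.53 (limma, adjusted p = 0.00403), and where its probe lies relative to the deletion was not given. Dnmt1 did not pass the test in the cells labelled as overexpressing it, at 0.27 (adjusted p = 0.112). In the cells labelled as overexpressing Dnmt3a and Dnmt3b, Dnmt3a lay at -1.03 (adjusted p = 0.0837) and Dnmt3b at -1.04 (adjusted p = 0.0346). The array signals of these 3 genes therefore do not show the labelled overexpression, and every direction below is that of the labelled cells. Of the ES cell markers, 8 of 9 were measured, Esrrb being the one that was not. In the Dicer-null cells 5 rose and 0 fell, beside 20.4% and 20.2% of all genes tested. Median green signals ranged from 112.4 to 135.1 over the arrays and median red signals from 233.6 to 333.5.

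Genes that lie together on a chromosome share its copy number, and many also share chromatin neighbourhoods. Mouse ES cells in culture are known to gain whole chromosomes or parts of them. Distal chromosome 6 carries the cluster of pluripotency genes Nanog, Dppa3, Gdf3 and Apobec1, and also genes of growth control such as Ccnd2 and Cdkn1b. The array has no probe for copy number, and DNA was not measured in the data used here.

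The probes behind the genes that anchor the description are shown so that the measured stretch can be located. They run from the first member with a gene symbol past the 85 Mb start, Exoc6b, through the pluripotency cluster to the cell cycle genes. Each line gives the first 30 of the 60 bases of the probe as deposited in the array files, in lower case and with no base marked. The position on build mm7 and the strand stand before it. The files used here give no exon or untranslated region for a probe, and no genome of this build was used.
Exoc6b, chr6:85032520-85032579, minus strand: tgaagcagtgtcgactacaacagagaaata
A2m, chr6:121701093-121701152, plus strand: tacaaaattccaagtgaacaacgacaacca
Gdf3, chr6:122643573-122643632, minus strand: tggacttacacttagagattttggtcaaag
Dppa3, chr6:122666937-122666996, plus strand: taacctttaaattgtagataggatgcacaa
Nanog, chr6:122750894-122750953, plus strand: cttctgagctctatttacaacttggtgtgt
Ccnd2, chr6:127173178-127173237, minus strand: aagagaccatcccgctgactgcggaaaagc
Pzp, chr6:128509421-128510186, minus strand: tgttgatgtgaagatggtatcaggcttcat
Cdkn1b, chr6:134939519-134939578, plus strand: ttcattgcctgtgtatgagaaaaacttgga

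Dicer-null clone 27G5 lay above wild type along the whole stretch. In steps of 10 Mb from 85 Mb, the median log2 ratios of clone 27G5 over wild type were 0.186, 0.269, 0.228, 0.235, 0.216, 0.223 and, in the last step, 0.315, over 25 to 126 genes a step. The same steps in clone 27H10 gave 0.029, -0.038, 0.007, 0.029, 0.125, 0.054 and 0.061. Every step of clone 27G5 was therefore above every step of clone 27H10 when the arrays of a pair were averaged. By single array this did not hold throughout. In the step that starts at 95 Mb, with 25 genes, clone 27G5 lay at 0.331 on replicate 1 and at 0.066 on replicate 2. The lower value was below those of clone 27H10 in the step that starts at 125 Mb, 0.122 and 0.094. Of all members, 370 (73%) were above 0 in clone 27G5 and 285 (56.2%) in clone 27H10, beside 51.4% and 50.9% of proximal chromosome 6 genes. Over the 411 members detected in all channels the medians were 0.293 and 0.044.

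The edge of the stretch did not fall at 85 Mb itself. The genes from 75 to 85 Mb, which are not members, had a median of 0.166 in clone 27G5 over wild type and of 0.005 in clone 27H10, over 49 genes, of which 46 lie between 80 and 85 Mb. The 10 Mb before them lay at 0.063 and 0.024. Just outside the start, Zfp638 lay at 0.56 in clone 27G5 and 0.35 in clone 27H10, Dysf at -1.17 and -0.81, and Cyp26b1 at 0.24 and 0.10. Just inside, Exoc6b, a subunit of the exocyst that tethers secretory vesicles, lay at 0.64 and 0.30, Spr, which makes tetrahydrobiopterin, at 0.48 and 0.18, and the transcript ENSMUST00000095768 at 0.04 and 0.01. Exoc6b has probes on both sides of the start. Those before 85 Mb read 0.72 and 0.37 (the brightest of the gene) and 0.48 and 0.26.

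**Figure D1:**
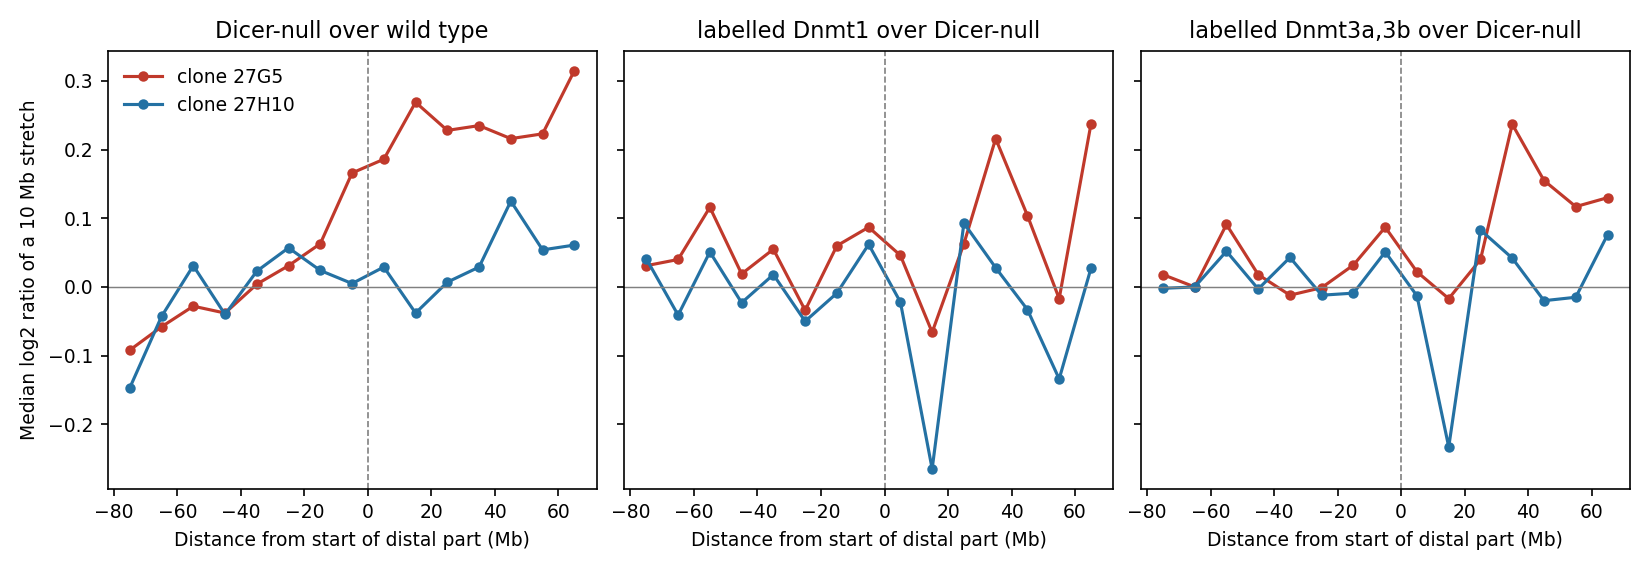
Median log2 ratio of the genes in each 10 Mb stretch of chromosome 6 (build mm7), for both clones and the 3 comparisons. In Dicer-null over wild type, clone 27G5 sits between 0.186 and 0.315 from 85 Mb on, while clone 27H10 stays between -0.038 and 0.125.

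The 2 dye orientations gave similar medians over the whole stretch. Over all members, the arrays of clone 27G5 over wild type had medians of 0.199 and 0.220, and those of clone 27H10 had 0.052 and 0.038. The arrays of the clones did not overlap. Minus the proximal genes of the same array, the values were 0.207 and 0.200 in clone 27G5, against 0.040 and 0.059 in clone 27H10. Both clones were set against RNA named as wild type on 1 slide, and if that was the same RNA, the gap between them within a gene does not depend on it. Its median was 0.272 for the 201 members from 85 to 115 Mb and 0.212 for the 306 members from 115 Mb on.

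Gene by gene, both arrays of clone 27G5 lay above both arrays of clone 27H10 for 269 of 507 members (53.1%), and below them for 27 (5.33%). Over all genes tested the shares were 20.1% above and 17.4% below, and over proximal chromosome 6 they were 20.9% and 16.9%. The stretch from 85 to 115 Mb had 119 such members above of 201 (59.2%) and that from 115 Mb had 150 of 306 (49%). Chromosome 11 was the other chromosome with a raised median in clone 27G5, at 0.156 against -0.002 in clone 27H10. Chromosome 8 lay at -0.094 and -0.068, and all remaining chromosomes lay between -0.036 and 0.046 in both.

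**Figure D2:**
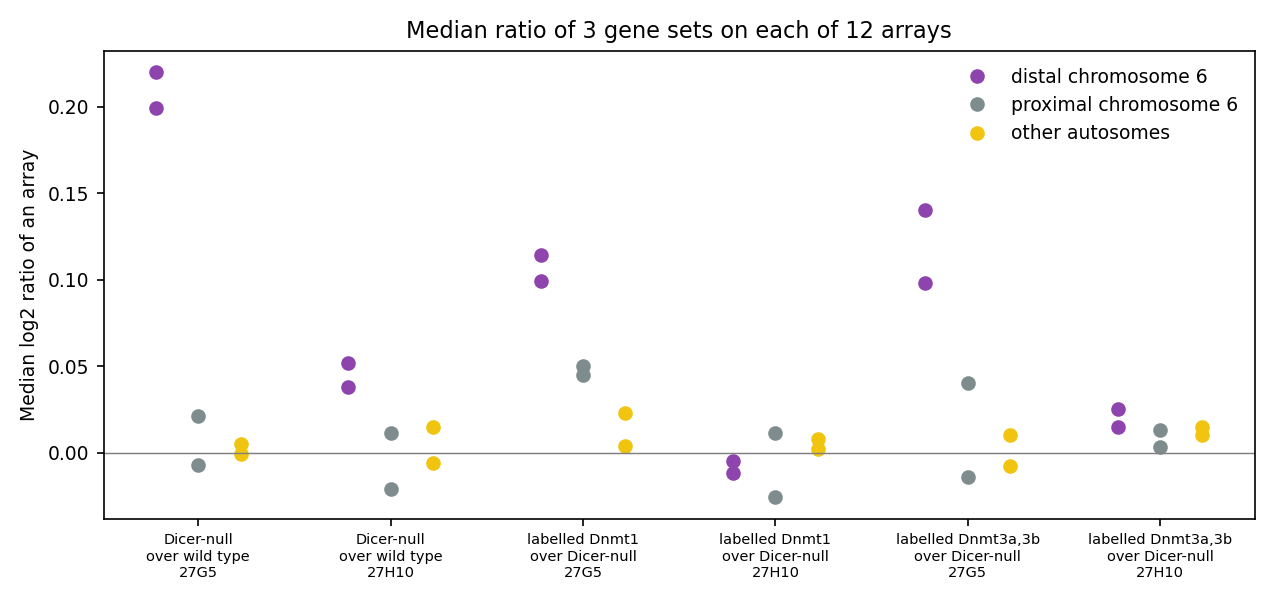
Median log2 ratio of the distal members, of proximal chromosome 6 genes and of genes on other autosomes on each of the 12 arrays. The distal medians of clone 27G5 over wild type, 0.199 and 0.220, lie apart from the proximal and other autosomal medians of the same arrays.

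The overexpression ratios of clone 27G5 varied along the stretch. They are given on either side of 115 Mb, an edge chosen after the values by stretch had been seen. From 85 to 115 Mb, the cells of clone 27G5 labelled Dnmt1 and those labelled Dnmt3a,3b lay at 0.046 and 0.034 over their Dicer-null parent. From 115 Mb on they lay at 0.158 and 0.180, and 207 and 212 of the 306 members were above 0. In clone 27H10 the same genes lay at -0.004 and 0.023. By array, the medians from 115 Mb in clone 27G5 were 0.168 and 0.139 for Dnmt1 and 0.164 and 0.171 for Dnmt3a,3b, whereas in clone 27H10 they were 0.005 and -0.011, and 0.027 and 0.007. No array of clone 27H10 reached the lowest of clone 27G5. In 10 Mb steps from 85 Mb, the Dnmt1 medians of clone 27G5 were 0.046, -0.066, 0.063, 0.216, 0.104, -0.017 and 0.237, and those of Dnmt3a,3b were 0.022, -0.017, 0.040, 0.237, 0.155, 0.117 and 0.130. The step from 135 to 145 Mb was thus no higher than the parent for Dnmt1, with 20 of 47 genes above 0. In steps of 5 Mb, the 48 genes from 110 to 115 Mb already lay at 0.162 and 0.139, and the 29 from 135 to 140 Mb lay at -0.040 and 0.041, so the values do not divide sharply at 115 Mb. Both overexpression ratios of a clone share its Dicer-null RNA, so the 2 are not separate evidence of a shift.

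Over all members the overexpression ratios of clone 27G5 had medians of 0.114 (Dnmt1) and 0.121 (Dnmt3a,3b), and of 0.143 and 0.135 over the members detected in all channels. Proximal chromosome 6 lay at 0.044 and 0.024. The distal minus proximal difference for Dnmt1 in clone 27G5 was 0.070, and it was 0.012 when each array was centred on its median in place of loess. With that centring clone 27H10 had 0.011, so over all members the clones were alike for Dnmt1. From 115 Mb on, the same centring gave Dnmt1 medians of 0.128 in clone 27G5 and -0.001 in clone 27H10. For the genes from 115 Mb, the alternative settings that keep all arrays gave medians from 0.128 to 0.248 for Dnmt1 and from 0.171 to 0.255 for Dnmt3a,3b in clone 27G5, and from -0.022 to 0.009 and from 0.023 to 0.040 in clone 27H10.

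Adding the overexpression ratio of a gene to the ratio of its Dicer-null parent gives each labelled line over wild type. In clone 27G5 these sums had medians of 0.234 for Dnmt1 and 0.263 for Dnmt3a,3b from 85 to 115 Mb. From 115 Mb on they were 0.478 and 0.468, and 0.560 and 0.607 over members detected in all channels. In clone 27H10 the sums were 0.065 and 0.079 from 115 Mb on. By 10 Mb step from 85 Mb, the sums in clone 27G5 were 0.231, 0.163, 0.352, 0.528, 0.375, 0.242 and 0.623 for Dnmt1 and 0.264, 0.184, 0.366, 0.569, 0.362, 0.327 and 0.490 for Dnmt3a,3b. The step from 135 to 145 Mb was no higher than the one before the edge.

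**Figure D3:**
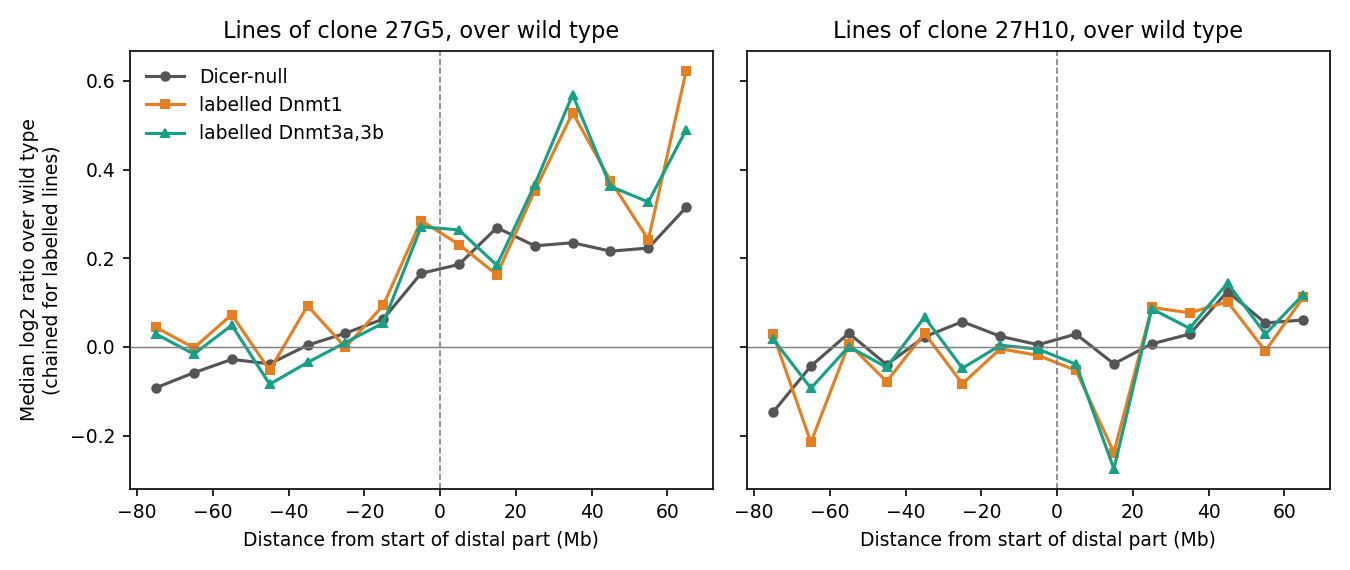
Median log2 ratio over wild type of each of the 6 lines in 10 Mb stretches of chromosome 6, the labelled overexpression lines as the sum of 2 ratios. From 115 to 125 Mb the Dicer-null line of clone 27G5 lies at 0.235 and its labelled lines at 0.528 and 0.569.

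The size of the shift went with the brightness of the probe. From 115 Mb on, the members at or above the median signal had a median of 0.407 in Dicer-null clone 27G5 over wild type, and the dimmer ones had 0.102. The summed ratios of the brighter members were 0.764 and 0.827 in the clone 27G5 lines, and 0.218 and 0.236 in the clone 27H10 lines. Bright proximal genes had 0.040 in Dicer-null clone 27G5. Of the same members from 115 Mb, those with probe GC content below the median lay at 0.282 and the others at 0.161. Distal and proximal probes had median signals of 9.16 and 8.7 on the log2 scale, and median GC contents of 43.3% and 41.7%.

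Promoters were read from RefSeq (assembly GRCm38.p6, windows of 300 bases that begin upstream of a start and end just after it, the copy with most CG for a symbol with several) for the 332 of 504 member symbols that matched. The dinucleotide CG, which reads the same on both strands, occurred a median of 18 times in a distal promoter, 18 times in a proximal one, 20 times on other autosomes, and 8 times over all promoters. At least 10 CG stood in 73.5% of distal, 76.3% of proximal and 77.3% of other autosomal promoters, beside 45.8% of all promoters in the table. By this count the distal promoters were like those of the other genes measured.

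**Figure D4:**
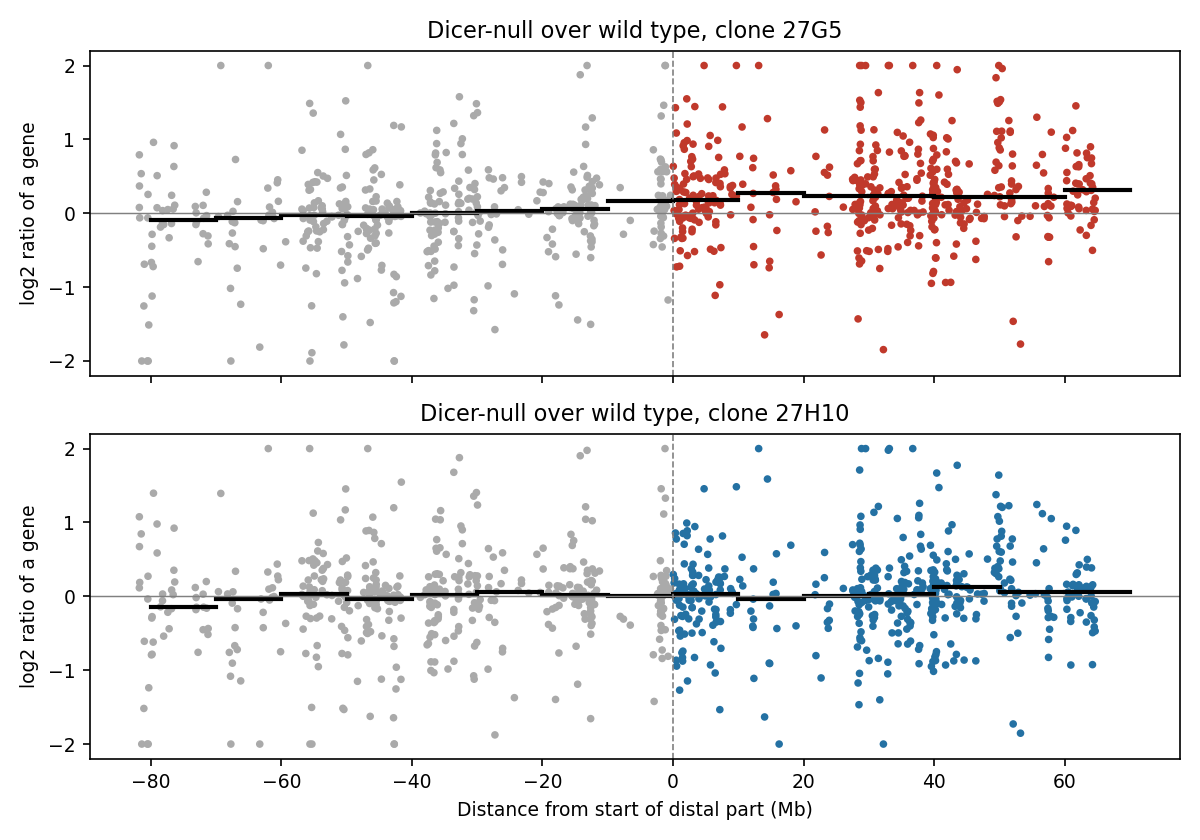
Log2 ratio of each chromosome 6 gene in Dicer-null over wild type, by clone, against distance in Mb from the start of the distal part. Values beyond 2 are drawn at the edge, and black bars mark the medians of the stretches. The members scatter widely on both sides of 0 in both clones. Over the members from 85 to 115 Mb the median of clone 27G5 was 0.204, and beyond 115 Mb it was 0.243. These medians cover several stretches each and are not the bars.

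Single genes were tested with limma, with the clone as the replicate (n = 2) and Benjamini-Hochberg adjustment over all 19405 genes. In the Dicer-null cells 117 of 507 members rose (23.1%) and 52 fell (10.3%), beside 20.4% of all genes tested that rose and 20.2% that fell. The share that rose was near that of all genes. The share that fell was smaller than that of all genes and than the 19.8% of proximal genes, a difference that was not tested. From 85 to 115 Mb 43 rose and 24 fell, and from 115 Mb on 74 rose and 28 fell. Without the ratio of clone 27G5 the call was made for 68 members (41 up, 27 down), and without that of clone 27H10 for 80 (73 up, 7 down). All genes gave 8.65% up and 8.88% down in the first of these fits, and 8.15% and 7.53% in the second. Each of them tests a single ratio, with the spread taken from the comparisons that keep both clones. With ratios that share an RNA taken as correlated, limma called 24 members (19 up, 5 down), beside 4.81% and 4.98% of all genes.

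In the cells labelled Dnmt1, 56 members rose (11%) and 27 fell (5.33%), beside 12.1% and 10.8% of all genes. In those labelled Dnmt3a,3b, 48 rose (9.47%) and 22 fell (4.34%), beside 10.5% and 10.5%. With the dye orientation as a replicate block, the counts were 145 (95 up, 50 down) and 140 (98 up, 42 down), and calls grew over the whole array too, to 17.6% up and 15.7% down for Dnmt1 and to 16.1% and 15.7% for Dnmt3a,3b. Leaving out clone 27H10 gave 46 calls for Dnmt1 (35 up, 11 down), beside 6.55% and 5.06% of all genes. Leaving out clone 27G5 or clone 27H10 gave 0 for Dnmt3a,3b, where 0.0206% and 0% of all genes were called higher and 0% lower. With shared RNAs taken as correlated, 5 and 4 members passed, beside 1.38% up and 0.886% down, and 1.08% and 0.871%, of all genes. From 115 Mb on, 37 members rose and 10 fell with Dnmt1, and 28 rose and 8 fell with Dnmt3a,3b, while from 85 to 115 Mb the counts were 19 and 17, and 20 and 14.

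The difference between the clones in the overexpression ratios was tested on its own, on 2 ratios of each clone with 1 residual degree of freedom, and both ratios of a clone share its Dicer-null RNA. limma called 0 members higher in clone 27G5 and 0 lower, beside 0% and 0% of all genes, and the lowest adjusted p was 0.197. At an unadjusted p under 0.05, 89 members were higher in clone 27G5 and 22 lower, beside 6.37% and 6.12% of all genes tested. The 4 arrays of clone 27G5 lay above the 4 of clone 27H10 for 88 members (17.4%) and below for 21 (4.14%), beside 6.9% and 5.6% of all genes. Proximal chromosome 6 was skewed the same way, with 9.6% above and 3.55% below. The median clone difference was 0.1 over the members and 0.05 over the proximal genes. From 115 Mb on, 67 of 306 members (21.9%) lay above and 8 (2.61%) below. With the replicate block limma called 52 members higher in clone 27G5 and 13 lower, beside 2.94% and 3.01% of all genes. Median centring gave 19 higher and 5 lower, beside 0.974% and 1.35% of all genes. The scanner's log ratio gave 9 and 2 (0.526% and 0.175% of all genes), the authors' deposited values gave 11 and 2 (0.832% and 0.233%), and a filter on every channel gave 4 and 2 (0.395% and 0.312%). Without the arrays of replicate 1 the counts were 71 and 15, beside 5.32% and 4.61% of all genes, and without those of replicate 2 they were 0, with 0% of all genes.

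The pluripotency genes near 122 Mb were 10 of 10 measured, and 5 rose and 1 fell in the Dicer-null cells. Their median was 0.74 in clone 27G5 and 0.28 in clone 27H10, beside 0.007 and 0.008 over all genes tested. Of all genes, 20.4% rose and 20.2% fell in the Dicer-null cells. The shares were 12.1% and 10.8% with Dnmt1, and 10.5% and 10.5% with Dnmt3a,3b. The counts of this list and of those below are to be read beside these shares, and the difference was not tested. Nanog, the homeobox factor that holds ES cells undifferentiated, read 1.97 and 1.30 on the arrays of clone 27G5 over wild type and 1.44 and 1.08 on those of clone 27H10. All 4 arrays were high and the clones overlapped. Its mean was 1.45 ± 0.26 (SD, n = 2, limma adjusted p = 0.00168). Gdf3, a growth factor of the TGF-beta family, rose by 1.30 ± 0.28 (SD, n = 2, limma adjusted p = 0.0024), with both arrays of clone 27G5 above both of 27H10. Apobec1, a cytidine deaminase that edits RNA, rose by 1.15 (limma adjusted p = 0.00191). Foxj2, a forkhead factor, rose by 0.68 (limma adjusted p = 0.00297).

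Dppa3, a maternal factor that shields DNA from loss of methylation in the early embryo, split the clones. Over wild type it read -0.07 and 0.08 in clone 27G5, against -0.92 and -0.91 in clone 27H10. Its mean of -0.45 did not pass the test (limma adjusted p = 0.318). In the cells labelled Dnmt1 it read 2.10 and 2.05 in clone 27G5, against 0.98 and 1.32 in clone 27H10. There it rose, by 1.61 ± 0.65 (SD, n = 2, limma adjusted p = 0.0229), with clone 27G5 above 27H10 on every array. For Dnmt3a,3b the mean was 1.17 (limma adjusted p = 0.0554).

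Of the same 10 genes, 4 rose in the cells labelled Dnmt1 and 3 in those labelled Dnmt3a,3b, and 0 fell in either. Nanog read 0.72 and 0.12 in clone 27G5, against 1.51 and 0.37 in clone 27H10 for Dnmt1, so that the 2 dye orientations differed more than the clones. It passed narrowly, at 0.68 (limma adjusted p = 0.0353) and, for Dnmt3a,3b, at 0.62 (limma adjusted p = 0.0468). Slc2a3, a glucose transporter next to Nanog, fell by 0.49 in the Dicer-null cells (limma adjusted p = 0.0156) and rose by 0.95 and 0.76 in the labelled ones (limma adjusted p = 0.00558 and 0.00952). Its dye orientations differed in sign in clone 27G5 over wild type, at 0.16 and -0.76, and its spots were saturated on 2 wild-type arrays and on 2 arrays of the labelled cells in each comparison, so the sizes are uncertain. The Dicer-null RNA is the numerator of the first comparison and the reference of the others, so opposite signs between them share that RNA.

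Genes of the cell cycle and growth control had 17 of 19 measured. In the Dicer-null cells 5 rose and 1 fell, beside 20.4% and 20.2% of all genes. The list median was 0.68 in clone 27G5 and 0.21 in clone 27H10. Vhl, the ubiquitin ligase subunit that marks hypoxia factors for degradation, read 1.21 and 1.04 in clone 27G5, against 0.63 and 0.65 in clone 27H10. Both arrays of 27G5 were higher, and the mean of 0.88 passed the test (limma adjusted p = 0.0036). Ccnd2, a D-type cyclin, read 0.38 and 0.68 in clone 27G5, against 0.85 and 0.92 in clone 27H10, the opposite order of the clones. It rose by 0.71 (limma adjusted p = 0.0187), and by 0.93 in the cells labelled Dnmt3a,3b (limma adjusted p = 0.0165). Mxd1, an antagonist of Myc, rose by 0.65 (limma adjusted p = 0.00938) and fell in those labelled Dnmt3a,3b by 0.50 (limma adjusted p = 0.0386).

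Cdkn1b, the cyclin-dependent kinase inhibitor p27, read 1.35 and 0.42 in clone 27G5, against 0.94 and 0.28 in clone 27H10. The dye orientations differed more than the clones, and its mean of 0.75 had a limma adjusted p of 0.0284. Foxm1, which drives mitotic genes, did not pass, at 0.45 (limma adjusted p = 0.0948), with 0.60 and 0.76 in clone 27G5 above 0.18 and 0.24 in clone 27H10. Of the 17, 2 rose with Dnmt1 and 0 fell, and 3 rose and 1 fell with Dnmt3a,3b. Ptpn6, a phosphatase of blood cell signalling, was among those that rose, by 0.68 and 0.79 (limma adjusted p = 0.0345 and 0.0242).

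**Figure D5:**
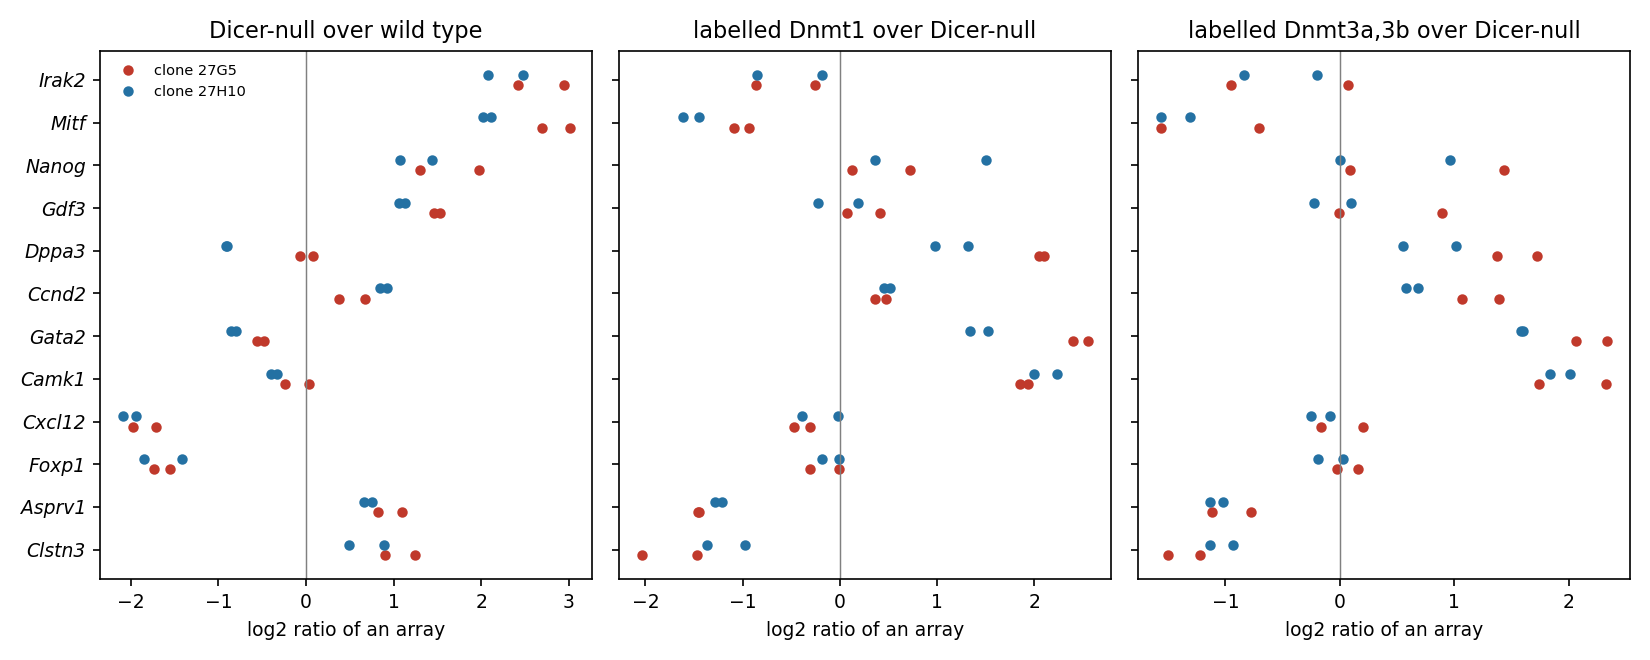
Log2 ratio of 12 named genes on every array, by comparison and clone. Nanog, Gdf3, Irak2 and Mitf lie above 0 on all 4 arrays of Dicer-null over wild type, Cxcl12 and Foxp1 lie below 0 on all 4, and Dppa3 lies near 0 in clone 27G5 and near -0.91 in clone 27H10.

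The list headed DNA repair, which also held Trnt1 and Parp11, had 10 of 10 genes measured. In the Dicer-null cells 2 rose and 1 fell, beside 20.4% and 20.2% of all genes. The list medians were 0.32 in clone 27G5 and -0.07 in clone 27H10. Xpc, the damage sensor of nucleotide excision repair, read 0.11 and 0.24 in clone 27G5 over wild type and -0.23 and -0.13 in clone 27H10. The clones lay on either side of 0, and the mean of 0.00 did not pass the test. On all 8 arrays of the labelled cells the values lay between 0.86 and 1.07, and Xpc rose by 0.99 and 1.01 (limma adjusted p = 0.00479 and 0.0049). Fancd2, of the Fanconi crosslink repair pathway, rose by 0.40 in the Dicer-null cells (limma adjusted p = 0.0468), and Parp11 fell by 0.79 (limma adjusted p = 0.0189). Setmar, a methyltransferase, rose by 0.40 (limma adjusted p = 0.0277) and fell by 0.48 in the cells labelled Dnmt1 (limma adjusted p = 0.0282).

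Glucose metabolism had 6 of 8 listed genes measured. In the Dicer-null cells 2 rose and 2 fell, beside 20.4% and 20.2% of all genes. Gfpt1, which starts the hexosamine pathway, rose by 1.05 ± 0.23 (SD, n = 2, limma adjusted p = 0.00125). Suclg2, a subunit of succinyl-CoA ligase, rose by 0.85 (limma adjusted p = 0.0198), and Eno2, an enolase, fell by 0.85 (limma adjusted p = 0.00512). Tpi1, triosephosphate isomerase, lay at 0.34 (limma adjusted p = 0.127), and Ldhb, a lactate dehydrogenase subunit, at 0.02 (limma adjusted p = 0.962). Spots of Tpi1 and Ldhb were saturated on some arrays. With Dnmt1 2 of the 6 rose, with Dnmt3a,3b 1 did, and 0 fell.

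Chromatin and transcription regulators had 21 of 23 measured. In the Dicer-null cells 5 rose and 2 fell, beside 20.4% and 20.2% of all genes. The list medians were 0.08 in clone 27G5 and -0.07 in clone 27H10. Mitf, the factor that specifies melanocytes, read 2.69 and 3.01 in clone 27G5, against 2.02 and 2.11 in clone 27H10. Clone 27G5 was higher on both arrays, and the mean was 2.46 ± 0.55 (SD, n = 2, limma adjusted p = 0.000824). A second Mitf probe gave 0.83. Foxp1, a forkhead repressor, fell by 1.64 ± 0.01 (SD, n = 2, limma adjusted p = 0.000176), and the other gene of the list that fell was Eno2, the enolase also counted under glucose metabolism. Aebp2, a cofactor of Polycomb complex 2, rose by 1.27 (limma adjusted p = 0.00104), and Tada3, of histone acetyltransferase complexes, by 0.73 (limma adjusted p = 0.00807). Chd4, the remodelling ATPase of the NuRD complex, lay at -0.02 (limma adjusted p = 0.886).

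In the labelled cells 3 genes of the list rose and 1 fell, in each comparison. Those that rose were Gata2, Pparg and the enolase Eno2 with Dnmt1, and Gata2, Bhlhe40 and Tada3 with Dnmt3a,3b. Gata2, a factor of blood precursors and trophoblast, read 2.40 and 2.56 in clone 27G5, against 1.33 and 1.52 in clone 27H10 for Dnmt1, and 2.07 and 2.34 against 1.58 and 1.60 for Dnmt3a,3b. Every array was above 1, with clone 27G5 the higher, and the means were 1.95 and 1.90 (limma adjusted p = 0.0089 and 0.01). Mitf was the one that fell, by 1.27 and 1.28 (limma adjusted p = 0.0153 in both). Over all genes tested, 20.2% fell in the Dicer-null cells, and 12.1% rose with Dnmt1 and 10.5% with Dnmt3a,3b. Of 7 trophoblast markers elsewhere in the genome, 5 fell in the Dicer-null cells, with clone medians of -1.59 and -1.41. In the labelled cells 5 and 6 of these markers rose, with medians of 1.91 and 1.82 for Dnmt1 and of 1.63 and 1.78 for Dnmt3a,3b. Their part in the values of Gata2 was not tested, and fewer cells of a type cannot be told apart from less RNA per cell in such bulk samples.

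Other markers moved with the same contrasts. Their counts stand beside 20.4% of all genes that rose and 20.2% that fell in the Dicer-null cells. With Dnmt1 12.1% of all genes rose and 10.8% fell, and with Dnmt3a,3b 10.5% and 10.5%. Of 8 fibroblast markers 1 rose and 6 fell in the Dicer-null cells, with single values from -4.29 to 2.22 in clone 27G5 and from -4.18 to 1.82 in clone 27H10. Of 6 primitive endoderm markers 0 rose and 4 fell, with medians of -1.11 and -1.06. In the labelled cells 1 fibroblast marker rose in each comparison and 2 fell with Dnmt1 and 1 with Dnmt3a,3b, and 1 and 2 endoderm markers rose. The fibroblast medians were -1.38 in clone 27G5 and -1.5 in clone 27H10 over wild type. The part of these markers in the shift of distal chromosome 6 was not tested.

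Translation, secretion and RNA processing had 23 of 24 measured. In the Dicer-null cells 5 rose and 3 fell, beside 20.4% and 20.2% of all genes. The list medians were 0.17 in clone 27G5 and -0.10 in clone 27H10. Usp5, which recycles ubiquitin chains, rose by 0.81 (limma adjusted p = 0.0136). Arpc4, of the actin-branching Arp2/3 complex, fell by 0.86 (limma adjusted p = 0.00466), and Eif4e3, a cap-binding protein, fell by 0.82 (limma adjusted p = 0.00533) and rose by 1.05 with Dnmt1 and 0.83 with Dnmt3a,3b (limma adjusted p = 0.00676 and 0.0126). In the Dicer-null RNA the Eif4e3 probe was well above background on 2 of 4 arrays over wild type, on 1 of 4 as the reference of Dnmt1 and on 3 of 4 as that of Dnmt3a,3b, so these sizes are uncertain. Snrnp27, of the spliceosome, read 0.20 and 0.06 in clone 27G5, against -0.31 and -0.71 in clone 27H10, and did not pass the test. Rpl32, a ribosomal protein, had saturated spots and read -0.31 and 1.5 in clone 27G5 by dye orientation, so its adjusted p of 0.0192 (limma) rests on dye orientations of opposite sign. With Dnmt1 Eif4e3 alone of the list rose, with Dnmt3a,3b Eif4e3 and the actin gene Arpc4 did, and 0 fell.

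Mitochondrial and cell death genes had 11 of 12 measured. In the Dicer-null cells 4 rose and 1 fell, beside 20.4% and 20.2% of all genes. The list medians were 0.49 in clone 27G5 and 0.02 in clone 27H10. Bcl2l14, a member of the Bcl2 family, read 1.90 and 1.77 in clone 27G5, against 1.39 and 1.36 in clone 27H10. It rose by 1.61 ± 0.32 (SD, n = 2, limma adjusted p = 0.000546). Nfu1, which carries iron-sulfur clusters, rose by 1.27 (limma adjusted p = 0.00193), and Atg7, an enzyme of autophagy, by 0.38 (limma adjusted p = 0.0254). Chchd4, of import into the mitochondrial intermembrane space, fell by 0.69 with Dnmt1 (limma adjusted p = 0.0258), as did Uba3, a subunit of the enzyme that activates NEDD8, by 0.41 (limma adjusted p = 0.0375). With Dnmt3a,3b 0 of the 11 passed.

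Immune receptors and complement had 15 of 24 measured. In the Dicer-null cells 5 rose and 3 fell, beside 20.4% and 20.2% of all genes. A2m, a secreted protease inhibitor, read 2.82 and 2.46 in clone 27G5, against 2.27 and 2.20 in clone 27H10, and rose by 2.44 ± 0.29 (SD, n = 2, limma adjusted p = 0.0202). A second A2m probe gave 0.40. Pzp, a related inhibitor, rose by 1.86 (limma adjusted p = 0.00244). Cxcl12, a chemokine that guides migrating cells, fell by 1.93 ± 0.12 (SD, n = 2, limma adjusted p = 0.0002), with all 4 arrays between -2.09 and -1.72, while its second probe gave -0.39. C1s1, a complement protease, fell by 0.95 (limma adjusted p = 0.00795). Of the list, 4 rose with Dnmt1, 3 with Dnmt3a,3b, and 0 fell.

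Usp18, which removes the interferon-induced tag ISG15, rose by 1.02 with Dnmt1 and 1.25 with Dnmt3a,3b (limma adjusted p = 0.00645 and 0.00471). It was not well above background on any array of the reference in the Dnmt1 comparison, where the bound was at least 2.01-fold higher, and on 1 of 4 in the other. Such a bound sets the brighter mean against the higher of the lowest detected signal and the dim probe's own signal, and is open to dye bias. Ltbr, the lymphotoxin receptor, fell by 0.57 in the Dicer-null cells (limma adjusted p = 0.039) and rose by 0.68 and 0.66 in the labelled ones (limma adjusted p = 0.037 and 0.0431), although its Dnmt3a,3b arrays of clone 27G5 read -0.06 and 0.90.

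Among the members with the same sign on all 4 arrays, the highest in the Dicer-null cells, beside Mitf and A2m, were genes of signalling and transport. Rasgef1a, an exchange factor for Ras-like GTPases, read 3.12 and 3.15 in clone 27G5, against 2.84 and 2.72 in clone 27H10, and rose by 2.96 ± 0.26 (SD, n = 2, limma adjusted p = 0.00152). Irak2, a kinase of interleukin-1 and Toll-like receptor signalling, read 2.94 and 2.42 in clone 27G5, against 2.48 and 2.08 in clone 27H10, and rose by 2.48 ± 0.29 (SD, n = 2, limma adjusted p = 0.000165). Fxyd4, a regulator of the sodium pump, rose by 2.13 (limma adjusted p = 0.000484), and Ttll3, an enzyme that adds glycine to tubulin and was named for its clone difference, by 2.09 (limma adjusted p = 0.00244). The same sign on all 4 arrays was a condition of this ranking, so the shared direction of the clones is not a result.

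The lowest, beside Cxcl12 and Foxp1, were Mgst1, a membrane glutathione transferase, which fell by 1.81 ± 0.06 (SD, n = 2, limma adjusted p = 0.00331), and Rerg, a Ras-like inhibitor of growth, which fell by 1.60 (limma adjusted p = 0.000402). Pdzrn3, a ubiquitin ligase, fell by 1.73 (limma adjusted p = 0.0172), and Lhfpl4, of inhibitory synapses, by 1.30 (limma adjusted p = 0.00433). Single members of the stretch thus also fell, and their shared sign in both clones was again a condition of the ranking. The rule for named genes gave 92 genes, 89 of them members, and 40 had further probes. In 13 a second probe had the opposite sign in some comparison, and in 3 (A2m, Cxcl12 and Mitf) it differed by over 2-fold.

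In the cells labelled Dnmt1 and Dnmt3a,3b, Camk1, a calcium-dependent kinase, had the highest mean among members with 1 sign on all 4 arrays. It read 1.85 and 1.93 in clone 27G5, against 2.23 and 2.00 in clone 27H10 for Dnmt1, and 2.33 and 1.74 against 2.01 and 1.84 for Dnmt3a,3b. The clones overlapped, and the means were 2.00 ± 0.16 and 1.98 ± 0.08 (SD, n = 2, limma adjusted p = 0.00179 and 0.00198). Tspan9, a tetraspanin, rose by 1.67 and 1.45 (limma adjusted p = 0.00481 and 0.00673) and Zfand4, a zinc finger protein, by 1.43 and 1.14 (limma adjusted p = 0.00214 and 0.00345). Rassf8, of the Ras association family, rose by 1.16 and 1.14 (limma adjusted p = 0.011 and 0.0117), and Slc6a12, a transporter of betaine and GABA, by 1.32 in both (limma adjusted p = 0.0125 and 0.0129).

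Other named members fell, and how many did so depends on the rule for naming genes. Trh, the precursor of thyrotropin-releasing hormone, fell by 1.53 with Dnmt1 and 0.93 with Dnmt3a,3b (limma adjusted p = 0.00645 and 0.0226). Clstn3, a calsyntenin of synapses, fell by 1.46 and 1.20 (limma adjusted p = 0.00645 and 0.0107) after rising by 0.88 in the Dicer-null cells (limma adjusted p = 0.0115). Asprv1, a protease of the skin barrier, read -1.45 and -1.46 in clone 27G5, against -1.21 and -1.28 in clone 27H10 for Dnmt1. It fell by 1.35 and 1.01 (limma adjusted p = 0.00273 and 0.00487), and had risen by 0.83 in the Dicer-null cells (limma adjusted p = 0.00215). Lmcd1, a LIM domain protein, fell by 0.96 and 0.87 (limma adjusted p = 0.00558 and 0.00731), where its probe was well above background on 1 of 4 arrays of the cells labelled Dnmt1 and on 3 of 4 of those labelled Dnmt3a,3b.

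The named members that divided the clones most in the overexpression ratios did not pass the test of that difference. A2m differed by 1.70 (SE 0.39, limma adjusted p = 0.242), as it read 1.21 and 0.24 in clone 27G5, against -1.68 and -1.97 in clone 27H10 for Dnmt3a,3b. Its second, dimmer probe read 0.38 in clone 27G5 and -0.10 in clone 27H10 there, and -0.06 and -0.15 for Dnmt1. Egr4, an early growth response factor, differed by 1.22 (SE 0.15, limma adjusted p = 0.197), and Pparg, the fat cell receptor, by 1.07 (SE 0.26, limma adjusted p = 0.251). In the other direction, Scnn1a, a subunit of the epithelial sodium channel, differed by -1.24 (SE 0.14, limma adjusted p = 0.197), Vwf, the von Willebrand clotting factor, by -0.98 (SE 0.16, limma adjusted p = 0.22), and Lockd, a long noncoding RNA beside Cdkn1b, by -0.81 (SE 0.14, limma adjusted p = 0.22). Nanog and Camk1 differed by -0.12 and -0.06, in the range of their standard errors of 0.22 and 0.15.

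Of the 123 calls for named genes, 48 remained without the ratio of clone 27G5 in their comparison and 49 without that of clone 27H10, while 21 remained with shared RNAs taken as correlated. All 33 calls for Dnmt3a,3b were lost when either clone was left out, as were nearly all calls of that comparison on the array (0.0206% and 0% of all genes higher, 0% lower). Another normalisation, starting value, filter or dye orientation, or the replicate block, ended 31 of the 123. Among the calls described above these were Cdkn1b, Fancd2, Ltbr, Rpl32, Setmar and Slc2a3 in Dicer-null over wild type, Chchd4, Ltbr, Nanog, Setmar and Uba3 with Dnmt1, and Ltbr, Mxd1, Nanog and Trh with Dnmt3a,3b. Under every alternative that tested them, 17 calls remained. The filter on every channel tested 113 of the 123, and Lmcd1 was not among them. Among the 17 calls in Dicer-null over wild type were Aebp2, Bcl2l14, Cxcl12, Foxp1, Fxyd4, Gfpt1, Irak2, Nanog, Rerg and Ttll3. In Dnmt1 over Dicer-null they were Asprv1, Camk1, Clstn3, Dysf, Lmcd1 and Zfand4.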

How the data were processed

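Per the file headers, the authors scanned the arrays with Agilent Feature Extraction, and the deposited intensity columns hold the mean signal and median local background of each spot in green (Cy3) and red (Cy5). The deposited log10 column is the scanner's ratio of red over green. The authors' deposited values are log2 ratios. Set against the scanner values they follow the labelled direction, and their centring, which differs between arrays, is not stated in the sources used here. Signals were corrected with normexp (offset 50) and normalised within arrays by loess in limma 3.58.1 (R 4.3.3, with version 1.17.8 of data.table). Control spots and spots marked as outliers were left out, and dye-swapped arrays were turned to 1 direction and averaged by pair. limma fitted the 6 ratios with 1 term for each of the 3 comparisons, with Benjamini-Hochberg adjustment and a threshold of 0.05, and a second fit of the 4 overexpression ratios took clone and comparison as terms. Scripts were tested on simulated data.

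The members and gene lists were chosen with earlier results of these data known. Named genes were a preset group around Nanog (Gapdh, among them, was not measured under that name), the 6 highest and 6 lowest members of each comparison with 1 sign on all 4 arrays, the same for the clone difference, up to 4 genes of each list and comparison, and the 3 genes on each side of the 85 Mb start. Names came from the array, updated by accession (336 members), symbol (51) or synonym (30) through RefSeq GRCm38.p6, whose coordinates were not used, and 90 kept the array's name. Replicate numbers mark the dye orientation, and deviations of same-numbered arrays from their group means correlated between 0.717 and 0.946 over 15 pairs of groups, so the number was also fitted as a block. Other alternatives were background correction, centring, loess off chromosome 6, starting values, probe choice, filter, start of the stretch, reference part, left-out arrays or clones, and shared RNAs (a correlation of 0.5). The number of arrays limits precision. Results for some genes are not reported here.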

Additional observations from a re-analysis of the deposited data

Results flagged for a closer look

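In the named genes given here both arrays of clone 27G5 lay on one side of 0 and both arrays of clone 27H10 on the other, within 1 comparison. Values are the log2 ratio of clone 27G5 minus that of clone 27H10, and the difference within a single comparison was not tested. For Dicer-null over wild type the differences were 0.38 for Rassf8, 0.35 for Xpc, 0.64 for Snrnp27, 0.37 for Sec13, a subunit of the COPII coat, and 0.34 for Slc25a26, which carries S-adenosylmethionine into mitochondria. All of these were higher in clone 27G5.

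For Dnmt1 over Dicer-null, clone 27G5 was the higher by 0.57 for Foxm1, 1.57 for Pdzrn3, 1.39 for Egr4, 0.82 for Pbp2 and 0.35 for Exoc6b. Clone 27G5 was the lower for Scnn1a (-1.21), Vwf (-1.18), Lockd (-0.74), Ttll3 (-0.51) and Suclg2 (-0.61).

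For Dnmt3a,3b over Dicer-null, clone 27G5 was the higher by 1.15 for Ldhb, 2.54 for A2m and 1.26 for Pbp2, and the lower for Scnn1a (-1.28), Vwf (-0.78), Lockd (-0.88) and Ttll3 (-0.78). The second A2m probe, a dimmer one, read 0.38 in clone 27G5 and -0.10 in clone 27H10. Scnn1a, Vwf, Lockd, Ttll3 and Pbp2 differed in both comparisons, which share the Dicer-null RNA of each clone.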

How the results depend on the processing

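The distal minus proximal median kept its sign in clone 27G5 for all 3 comparisons under every alternative run, and its size moved. For Dnmt1 with median centring it was 0.012 in clone 27G5 and 0.011 in clone 27H10, so the clones were alike in that setting. For Dicer-null over wild type it was 0.224, with 0.215 without background correction, 0.202 with median centring, 0.311 from the scanner's log ratio and from the authors' deposited table, 0.209 over all probes, 0.302 with every channel detected, 0.235 and 0.233 with a start 10 and 20 Mb later, 0.230 against other autosomes, and 0.200 to 0.207 without 1 array of each pair. For Dnmt1 it was 0.070, with 0.012, 0.082, 0.093, 0.081, 0.102, 0.109 and 0.104 under median centring, scanner ratio, authors' table, every channel, a start 10 Mb later, a start 20 Mb later and other autosomes, and 0.054 to 0.064 with arrays left out. For Dnmt3a,3b it was 0.097, with 0.115, 0.118, 0.117, 0.076, 0.127, 0.131 and 0.110 in the same order, and 0.10 to 0.112 with arrays left out. In clone 27H10 the moved values were 0.011 (Dnmt1, median centring), 0.048 and 0.026 (Dicer-null and Dnmt3a,3b, start 20 Mb later) and 0.024 (Dnmt3a,3b, 80 Mb start, chosen after seeing the data). With arrays left out they ran from 0.040 to 0.059, from -0.017 to 0.013 and from 0.002 to 0.022. The cause of these moves was not tested.

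Member calls were 169 for Dicer-null, 83 for Dnmt1, 70 for Dnmt3a,3b and 0 for the clone difference. Shared RNAs gave 24, 5, 4 and 0. Without clone 27G5 the first 3 were 68, 63 and 0, and without clone 27H10 they were 80, 46 and 0, with fewer ratios in each fit. With the replicate block they were 225, 145, 140 and, for the clone difference, 65, whereas the block left the medians as they were (0.224 in clone 27G5), and 120 of 123 named calls remained. The clone difference gave 24 with median centring, 11 with the scanner's log ratio, 13 with the authors' table and 6 with every channel detected. With 1 array of each pair left out, the counts ran from 172 to 189, from 87 to 116, from 98 to 120 and from 0 to 86. Rpl32, whose spots are saturated, turned to -0.523 for Dicer-null over wild type without replicate 2, and was 1.387 without replicate 1. Dim probes limit the description, since the shift was smaller among them.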
